A study of Homo sapiens with 6 samples.

Results

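Keratinocytes leave the basal layer of the epidermis under a small set of transcription factors, and the mRNA levels of 9 of these were followed after ultraviolet damage. They were the grainyhead-like factors GRHL1, GRHL2 and GRHL3, the basal layer factor TP63, the zinc finger factors KLF4, OVOL1 and ZNF750, and the C/EBP factors CEBPA and CEBPB. They were taken as a list and matched to the Ensembl gene identifiers of the expression tables. All 9 had values in all 6 libraries, out of 19493 genes with values, and all 9 were among the 11926 genes that were tested.

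In skin, p63 (the product of TP63) keeps basal keratinocytes in the epithelial lineage and is required for the epidermis to form. In the layers above, ZNF750, KLF4, OVOL1, GRHL3 and the C/EBP factors take part in ending division and in turning on the genes of the cornified envelope and the barrier. GRHL factors share a DNA-binding domain and a recognition site and act on adhesion, barrier and wound-closure genes.

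The cells were HaCaT, a single spontaneously immortalised line of human keratinocytes, carrying a photolyase of the marsupial Potorous tridactylus. This enzyme binds cyclobutane pyrimidine dimers (CPDs), the main DNA lesions of UVC, and splits them when it absorbs light. The groups, of 2 libraries each, were cells given UVC (15 J/m2 at 254 nm) with the photolyase switched on by 2 h of white light, cells given the same UVC with the photolyase left inactive, and untreated cells with an inactive photolyase. Harvest followed irradiation by 6 h. White light was given only with the active photolyase, so light and photolyase activity cannot be told apart. Whether the 2 libraries of a group are separate cultures is not stated, so each p-value weighs a difference against a library spread that may be technical.

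The libraries held 57669389 to 70005705 counted reads. Levels are given as scaled cRPKM, which is the deposited corrected RPKM (reads per length of gene and depth of library) divided by the library's TMM factor, a factor that puts most genes of the libraries on 1 scale. All 8 of 8 keratinocyte markers passed the filter on low values, with a summed level of 30565 to 30648 scaled cRPKM with active photolyase, 18542 to 19027 after UVC and 31702 to 32668 in untreated cells. Of the markers of other cells, 1 of 7 for melanocytes, 2 of 9 for fibroblasts and 4 of 7 for immune cells passed. The summed level was 1.35 to 1.49, 1.49 to 1.75 and 2.19 to 2.25 scaled cRPKM for melanocytes, 9.51 to 9.88, 8.55 to 8.84 and 7.62 to 8.82 for fibroblasts, and 188 to 199, 182 to 183 and 133 to 146 for immune cells, in the order active photolyase, UVC, untreated. TYR, COL1A2 and PTPRC were at or near 0 in every group, but other markers of the same cells were not. COL1A1 averaged 7.15, 5.26 and 5.85 scaled cRPKM, CD14 1.26, 1.99 and 1.55, and MITF 0.63, 0.61 and 1.35, in the same order. Immune sums came mostly from CD74 and CD68, and the part of all these markers in the results was not tested.

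The 9 factors moved in different directions. After UVC alone GRHL3 was 6.14-fold, TP63 3.19-fold and GRHL1 3.10-fold lower than in untreated cells, and KLF4 was 1.97-fold and CEBPA 1.77-fold higher. With the photolyase active, GRHL3 was 6.64-fold, TP63 2.07-fold and GRHL1 1.64-fold higher than after UVC alone, while KLF4 and CEBPA stayed above untreated cells by 1.92-fold and 1.85-fold. In bulk RNA, fewer cells of a type and less RNA per cell cannot be told apart.

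In UVC against untreated cells, 3 of 9 factors rose (KLF4, CEBPA and OVOL1) and 4 fell (GRHL3, TP63, GRHL1 and CEBPB) at an adjusted p under 0.05 (edgeR quasi-likelihood test, Benjamini-Hochberg over all tested genes). Of all tested genes, 42.5% rose and 43.1% fell in this comparison. The members' median log2 fold change was -0.07, against 0.0041 for all tested genes. When active photolyase was set against UVC, 4 of 9 rose (GRHL3, TP63, GRHL1 and CEBPB) and 1 fell (GRHL2), beside 39.2% of all genes that rose and 39.9% that fell. The median was 0.07 for the members and -0.038 for all genes. Relative to untreated cells, active photolyase had 4 that rose (KLF4, CEBPA, OVOL1 and CEBPB) and 3 that fell (GRHL1, TP63 and GRHL2), beside 33.0% and 32.9% of all genes. The median was 0.11 for the members and 0.012 for all genes. The shares of the 9 are read against these, and with 9 genes nothing is claimed from a difference between them. The comparisons share libraries, so their counts are not independent.

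A single scale cannot be taken for granted when most genes move. Scaling by library totals in place of TMM shifted the median log2 fold change of all genes to 0.42 in UVC against untreated cells, -0.34 in active photolyase against UVC and 0.12 in active photolyase against untreated cells. The calls over all genes then split into 7091 higher and 3546 lower, 3324 higher and 6939 lower, and 5228 higher and 2848 lower in these comparisons. Changes of direction or call under this choice are given beside the values of the factors concerned. Shifts in size, which this choice brings to every factor, are given only for some comparisons.

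**Figure D1:**
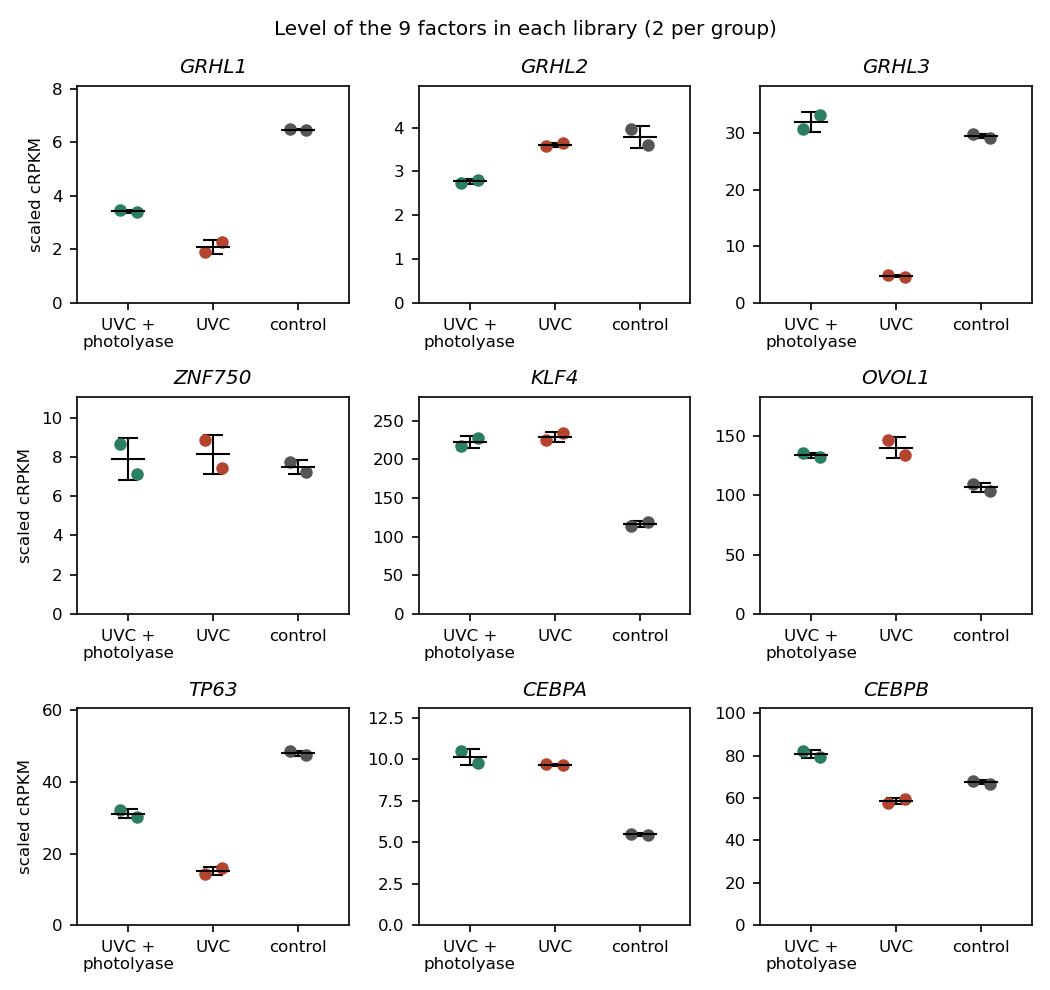
Scaled cRPKM of each factor (a panel each, linear axis from 0) in the 2 libraries of the UVC with active photolyase, UVC and control groups; points are libraries, long lines means and short lines the SD. GRHL3, TP63 and GRHL1 are lowest after UVC, while KLF4, OVOL1 and CEBPA are lowest in untreated cells.

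The bases upstream of the annotated starts are shown for 5 of the factors whose levels moved most, since the group differs widely in base composition there. RefSeq windows (GRCh38.p14) matched 6 of the 9 factors, as 8 windows of 250 bases each. Capitals mark matches, on either strand, to AP-1 (TGANTCA), the TATA box (TATAAA), the CCAAT box (CCAAT), the GC box (GGGCGG), the GRHL site (AACCGGTT) and the E-box (CACGTG). All are written 5′ to 3′ toward the start, on the strand of the gene. GRHL3 lies at chr1:24319107-24319356 (+), TP63 at chr3:189631139-189631388 (+), GRHL1 at chr2:9951443-9951692 (+), KLF4 at chr9:107489770-107490019 (-) and CEBPA at chr19:33302535-33302784 (-).
GRHL3: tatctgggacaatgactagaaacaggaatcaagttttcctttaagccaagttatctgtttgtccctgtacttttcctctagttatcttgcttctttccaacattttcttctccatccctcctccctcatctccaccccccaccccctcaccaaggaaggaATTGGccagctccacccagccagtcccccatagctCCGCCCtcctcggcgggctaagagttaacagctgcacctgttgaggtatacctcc
TP63: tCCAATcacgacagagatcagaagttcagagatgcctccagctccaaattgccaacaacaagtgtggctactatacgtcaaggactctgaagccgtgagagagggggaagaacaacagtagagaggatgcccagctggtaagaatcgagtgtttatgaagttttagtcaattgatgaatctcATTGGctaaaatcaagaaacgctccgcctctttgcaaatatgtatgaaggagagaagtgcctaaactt
GRHL1: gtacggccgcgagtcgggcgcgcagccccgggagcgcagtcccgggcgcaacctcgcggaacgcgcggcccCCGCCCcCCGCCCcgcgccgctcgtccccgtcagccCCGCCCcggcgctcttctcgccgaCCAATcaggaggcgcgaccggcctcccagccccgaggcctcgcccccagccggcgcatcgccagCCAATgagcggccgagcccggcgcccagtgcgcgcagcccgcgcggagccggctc
KLF4: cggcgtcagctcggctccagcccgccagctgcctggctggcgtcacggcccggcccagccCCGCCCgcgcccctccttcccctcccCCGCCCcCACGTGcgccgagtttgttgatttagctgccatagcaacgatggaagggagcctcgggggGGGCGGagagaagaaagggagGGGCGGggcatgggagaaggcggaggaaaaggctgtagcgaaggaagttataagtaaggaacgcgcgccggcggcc
CEBPA: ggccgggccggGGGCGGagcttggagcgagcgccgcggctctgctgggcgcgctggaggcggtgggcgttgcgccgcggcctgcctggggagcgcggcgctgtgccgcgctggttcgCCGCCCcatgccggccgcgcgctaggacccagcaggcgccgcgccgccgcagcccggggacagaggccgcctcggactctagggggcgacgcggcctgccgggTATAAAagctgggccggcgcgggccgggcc

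The windows of GRHL3, TP63 and GRHL1, which fell after UVC, had 50.8%, 44% and 81.6% G and C. The windows of KLF4 and CEBPA, which rose, had 69.2% and 81.2%. The median over 35116 promoter windows was 58%, with quartiles of 46.4% and 68%. Adjacent TT or AA steps, where a pyrimidine dimer between thymines can form on one strand or the other, numbered 36 in GRHL3, 41 in TP63, 5 in GRHL1, 21 in KLF4 and 6 in CEBPA. The median of all windows was 26, with quartiles of 15 and 41. GRHL1 had 2 CCAAT and 3 GC boxes, the GRHL3 window shown 1 of each, TP63 2 CCAAT boxes, KLF4 4 GC boxes and 1 E-box, and CEBPA 2 GC boxes and 1 TATA box. Such matches occurred in 32.01% (CCAAT), 42.64% (GC box), 6.345% (E-box) and 10.72% (TATA box) of all windows. The AP-1 site, present in 6.573% of windows, and the GRHL site, present in 0.1168%, were not among the letters of these 5. A second GRHL3 window, at chr1:24322790-24323039 (+), had no match to any of these motifs. GRHL3 is shown at the first start listed. TP63 had only 1 window, so any other start of TP63 is not covered here. Counts per gene do not tell which start was used, and the part of base composition in the changes was not tested.

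GRHL3, the grainyhead-like factor that drives barrier formation and eyelid and wound closure in mice, showed the widest swing of the 9. It stood at 30.7 and 33.2 scaled cRPKM with active photolyase, at 4.94 and 4.67 after UVC, and at 29.8 and 29.2 in untreated cells. The UVC libraries lay apart from all other libraries, and the active photolyase libraries lay above the untreated ones. GRHL3 was 6.14-fold lower after UVC than in untreated cells (log2 fold change -2.62 ± 0.06 SE, edgeR adjusted p = 2.09e-13). Active photolyase against untreated cells gave 0.11 ± 0.06, with a 95% interval of -0.0083 to 0.23 and an adjusted p of 0.0927. With library totals this last value was 0.22 (adjusted p = 0.0033), a call. The GRHL3 span shares 7484 bases with that of STPG1 on the opposite strand. STPG1 averaged 4.85 scaled cRPKM with active photolyase, 3.82 after UVC and 2.88 in untreated cells, a different order, and without a stated strand setting their shared reads cannot be told apart.

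GRHL1, which acts on the desmosomal cadherin gene DSG1, stood at 3.46 and 3.39 scaled cRPKM with active photolyase, at 1.91 and 2.27 after UVC, and at 6.48 and 6.46 in untreated cells. The 3 groups did not overlap, with the photolyase group between the other two. It was 3.10-fold lower after UVC than in untreated cells (-1.63 ± 0.08, edgeR adjusted p = 3.75e-10). With active photolyase it was 0.71 ± 0.09 above UVC (adjusted p = 5.10e-06) and lower than in untreated cells (-0.92 ± 0.08, adjusted p = 4.53e-07). With library totals UVC against untreated cells was -1.215 and active photolyase against UVC 0.41.

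GRHL2, which holds the epithelial state through CDH1 and other adhesion genes, was the lowest of the family in untreated cells. It stood at 2.74 and 2.81 scaled cRPKM with active photolyase, at 3.57 and 3.64 after UVC, and at 3.96 and 3.61 in untreated cells. The photolyase libraries lay below all others, and the UVC and untreated libraries overlapped. Against UVC the log2 fold change with active photolyase was -0.38 ± 0.07 (edgeR adjusted p = 0.000224), and against untreated cells -0.45 ± 0.07 (adjusted p = 9.42e-05). UVC against untreated cells gave -0.07 ± 0.07, with a 95% interval of -0.22 to 0.08 and an adjusted p of 0.360, and turned to 0.35 with library totals, a call (adjusted p = 0.000291). That scaling also moved active photolyase against UVC to -0.69.

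The shares within the GRHL family do not depend on the scaling of a library. GRHL3 made up 83.7% ± 0.75 of the summed GRHL cRPKM with active photolyase, 45.8% ± 2.26 after UVC and 74.2% ± 0.23 in untreated cells (SD, n = 2 each). GRHL2 made up 7.28% ± 0.20, 34.3% ± 0.08 and 9.51% ± 0.46 of the sum in the same order of groups. GRHL1 made up 8.99% ± 0.55, 19.9% ± 2.18 and 16.3% ± 0.23. GRHL3 was thus the largest of the 3 in every library, and its share after UVC lay below those of the other groups with no overlap. With 2 libraries a group, an exact permutation test cannot give a p below 0.333.

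TP63 was intermediate with active photolyase. It stood at 32.1 and 30.3 scaled cRPKM with active photolyase, at 14.2 and 15.9 after UVC, and at 48.6 and 47.6 in untreated cells, and no groups overlapped. It was 3.19-fold lower after UVC than in untreated cells (-1.67 ± 0.06, edgeR adjusted p = 7.75e-12). With active photolyase it was 1.05 ± 0.06 above UVC on the log2 scale (adjusted p = 1.56e-09). It remained below untreated cells by a log2 fold change of -0.62 ± 0.06 (adjusted p = 8.03e-07). Each of these calls held with library totals, at -1.26, 0.74 and -0.51.

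KLF4, which is required for the skin barrier in mice, was the most abundant of the 9 in all groups. It stood at 217 and 228 scaled cRPKM with active photolyase, at 224 and 234 after UVC, and at 113 and 119 in untreated cells. Both irradiated groups overlapped each other and lay above the untreated libraries. The log2 fold change was 0.98 ± 0.05 for UVC against untreated cells (edgeR adjusted p = 8.23e-10) and 0.94 ± 0.05 for active photolyase against untreated cells (adjusted p = 1.16e-08). Active photolyase against UVC gave -0.04 ± 0.05, with a 95% interval of -0.16 to 0.07 and an adjusted p of 0.470. With library totals that difference was -0.35, a call (adjusted p = 3.29e-05), near the shift of all genes by -0.34.

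OVOL1, a zinc finger repressor that limits the growth of differentiating keratinocytes in mice, was also higher in both irradiated groups, by less than KLF4. It stood at 135 and 132 scaled cRPKM with active photolyase, at 146 and 134 after UVC, and at 109 and 104 in untreated cells. Both irradiated groups overlapped each other and lay above the untreated libraries. The log2 fold change was 0.39 ± 0.06 for UVC against untreated cells (edgeR adjusted p = 1.72e-05) and 0.33 ± 0.06 for active photolyase against untreated cells (adjusted p = 0.000221). Active photolyase against UVC gave -0.07 ± 0.06 (95% interval -0.19 to 0.05, adjusted p = 0.273), and with library totals -0.37, a call (adjusted p = 2.35e-05). That scaling moved UVC against untreated cells to 0.81. The OVOL1 level was 60.3% ± 3.05 of the KLF4 level with active photolyase, 61.4% ± 5.43 after UVC and 92.2% ± 6.29 in untreated cells (SD, n = 2 each). Both irradiated groups lay below the untreated one in this ratio, which no scaling affects.

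ZNF750, a p63 target that turns on KLF4 and differentiation in human epidermis, was not called in any comparison with TMM scaling and the filter of 1 cRPKM. It stood at 8.67 and 7.14 scaled cRPKM with active photolyase, at 8.84 and 7.44 after UVC, and at 7.76 and 7.25 in untreated cells. The groups overlapped throughout. The edgeR test gave 0.12 ± 0.10 for UVC against untreated cells, -0.04 ± 0.09 for active photolyase against UVC and 0.08 ± 0.10 for active photolyase against untreated cells (adjusted p = 0.259, 0.689 and 0.505). With library totals the first was 0.53 and the second -0.35, both calls. The gene lies wholly within the span of TBCD on the opposite strand over 11144 bases. TBCD averaged 15.8 scaled cRPKM with active photolyase, 11.5 after UVC and 18.7 in untreated cells, and shared reads cannot be told apart here.

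CEBPA and CEBPB act together to take basal keratinocytes out of the cell cycle in mice. CEBPA stood at 10.5 and 9.80 scaled cRPKM with active photolyase, at 9.70 and 9.64 after UVC, and at 5.52 and 5.42 in untreated cells. Both irradiated groups lay above the untreated libraries, the photolyase libraries just above those of UVC. The log2 fold change was 0.82 ± 0.06 for UVC against untreated cells (edgeR adjusted p = 3.59e-08) and 0.89 ± 0.06 for active photolyase against untreated cells (adjusted p = 8.27e-08). Active photolyase against UVC gave 0.07 ± 0.06 (95% interval -0.06 to 0.20, adjusted p = 0.313), and with library totals -0.24, a call (adjusted p = 0.00246). That scaling moved UVC against untreated cells to 1.24.

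CEBPB stood at 82.0 and 79.3 scaled cRPKM with active photolyase, at 57.4 and 59.6 after UVC, and at 68.0 and 66.7 in untreated cells. The groups did not overlap, with the photolyase group highest. It was 0.46 ± 0.05 higher on the log2 scale with active photolyase than after UVC (edgeR adjusted p = 1.07e-06) and 0.26 ± 0.05 higher than in untreated cells (adjusted p = 0.000380). UVC against untreated cells gave -0.20 ± 0.05 (adjusted p = 0.00143), a small fall that turned to a rise of 0.21 with library totals, while the value against UVC became 0.16. CEBPA amounted to 12.6% ± 0.31 of the CEBPB level with active photolyase, 16.5% ± 0.52 after UVC and 8.12% ± 0.0072 in untreated cells (SD, n = 2 each).

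**Figure D2:**
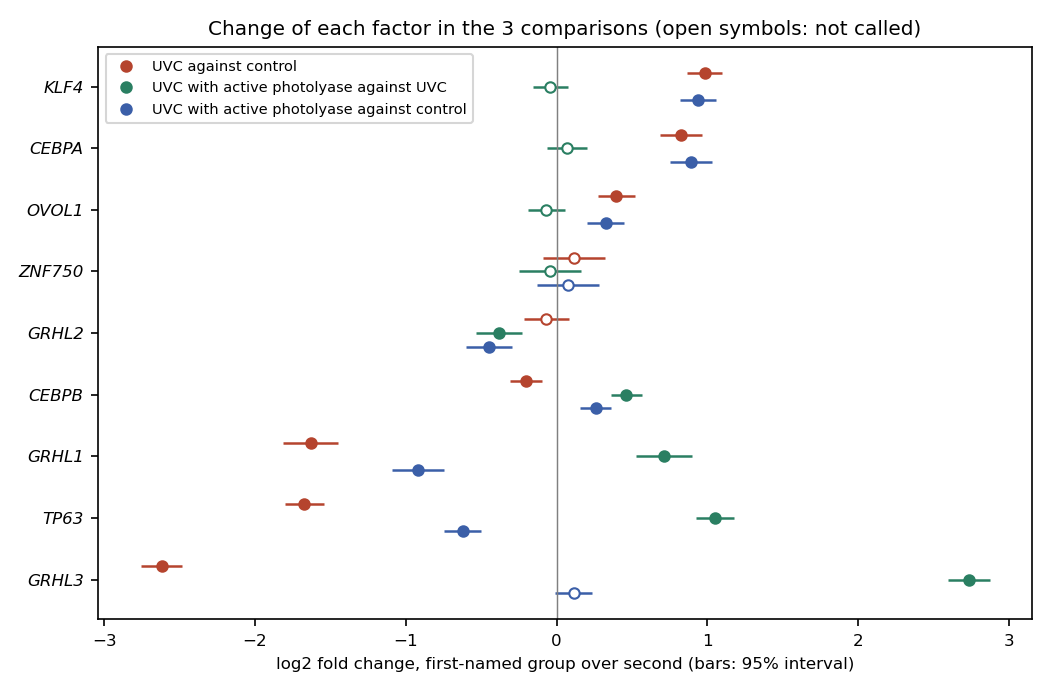
Log2 fold change of each factor in the 3 comparisons, first-named group over second, with bars for the 95% interval (edgeR) and open symbols for values not called. GRHL3, TP63 and GRHL1 lie to the left in UVC against untreated cells and to the right in active photolyase against UVC, while KLF4 and CEBPA lie near 0 in active photolyase against UVC and between 0.82 and 0.98 in the other 2 comparisons.

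TP63, which holds the basal state, and KLF4, a factor of the upper layers, moved apart in the irradiated cells. TP63 was 14.1% ± 1.08 of the KLF4 level with active photolyase, 6.57% ± 0.32 after UVC and 41.5% ± 1.95 in untreated cells (SD, n = 2 each). No groups overlapped in this ratio.

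**Figure D3:**
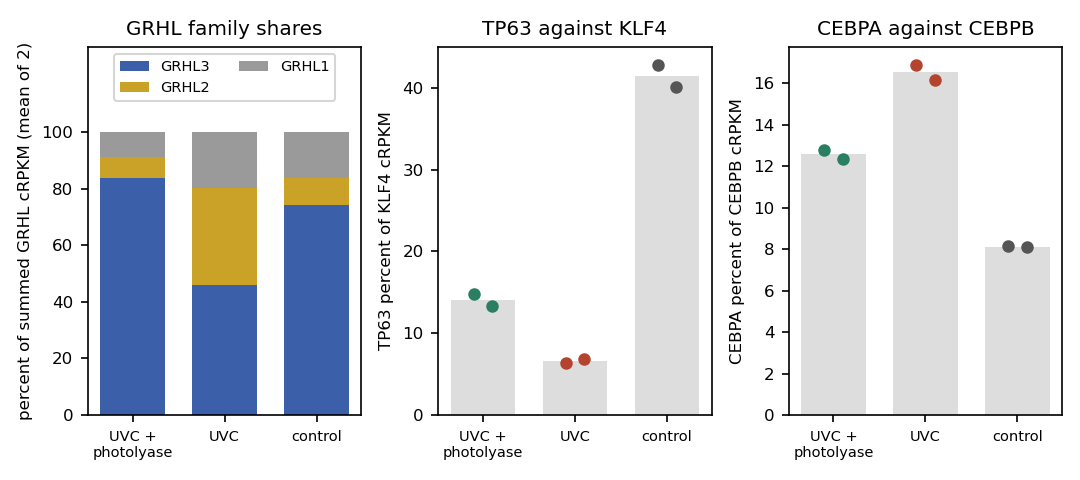
Left, mean share of GRHL1, GRHL2 and GRHL3 in their summed cRPKM; middle, TP63 as a percent of KLF4; right, CEBPA as a percent of CEBPB, by group, with bars for means and points for the 2 libraries. The GRHL3 share is 45.8% after UVC against 83.7% with active photolyase, and TP63 is 6.57% of KLF4 after UVC against 41.5% in untreated cells.

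The order of the levels per length was KLF4, OVOL1 and CEBPB in all groups. With active photolyase GRHL3 and TP63 came next and were the only neighbours whose libraries overlapped, followed by CEBPA, ZNF750, GRHL1 and GRHL2. After UVC the order went on with TP63, CEBPA, ZNF750, GRHL3, GRHL2 and GRHL1. In untreated cells it went on with TP63, GRHL3, ZNF750, GRHL1, CEBPA and GRHL2. GRHL3 thus stood below CEBPA and ZNF750 only after UVC.

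The factors differ greatly in annotated gene span, which need not be the length transcribed from the start in use. The annotated span (GENCODE v29) was 1.956 kb for CEBPB, 2.631 kb for CEBPA, 5.631 kb for KLF4, 10.2 kb for OVOL1, 11.14 kb for ZNF750, 45.16 kb for GRHL3, 50.59 kb for GRHL1, 177.3 kb for GRHL2 and 265.9 kb for TP63. The 3 that fell most after UVC had longer spans than the 3 that rose. CEBPB has the shortest span and fell slightly, and GRHL2 has a long span and was not called. Over 11728 tested genes with a span (98.34% of those tested), the median log2 fold change of UVC against untreated cells was 0.38 under 10 kb, 0.012 from 10 to 30 kb, -0.19 from 30 to 100 kb and -0.23 from 100 kb upward. GRHL3, GRHL1 and TP63 lay below the lower quartile of their span class, which was -0.99 for 30 to 100 kb and -1.07 above. The medians for active photolyase against UVC were -0.13, 0.037, 0.046 and -0.17 over the same classes. For active photolyase against untreated cells they were 0.25, 0.074, -0.097 and -0.32. There GRHL2 (-0.45) and TP63 (-0.62) lay within the quartiles of their class, -0.66 and 0.024. GRHL1 (-0.92) lay below the lower quartile of its class, and KLF4, CEBPA and OVOL1 above the upper quartile of theirs. The part of span in the members' changes was not tested.

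**Figure D4:**
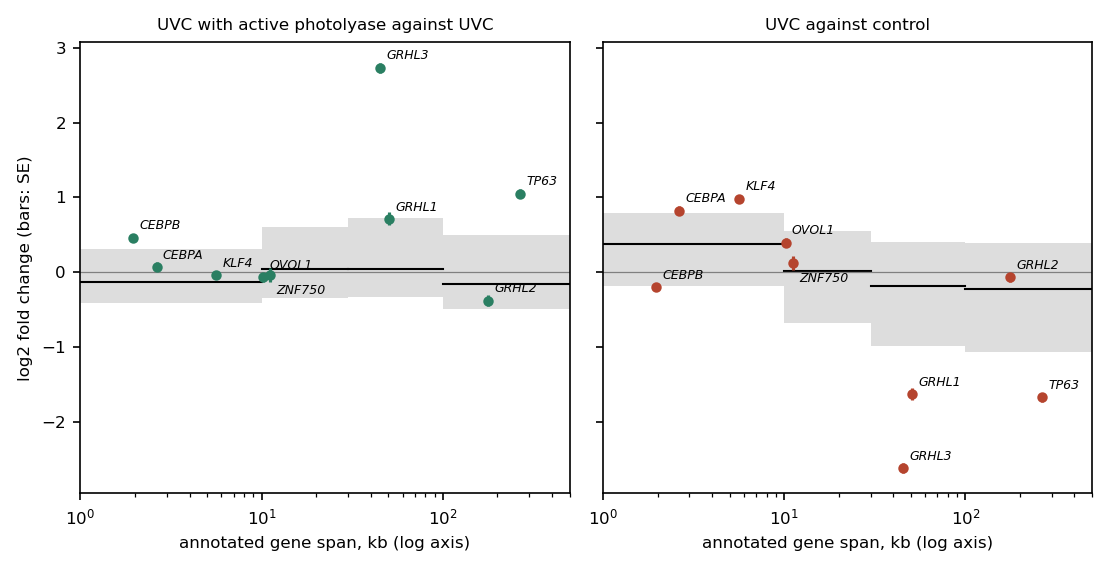
Log2 fold change against annotated gene span in kb (log axis) for the 9 factors, in active photolyase against UVC (left) and UVC against untreated cells (right); bars on points are standard errors, black lines are medians of all tested genes in 4 span classes and grey boxes their quartiles. GRHL3, GRHL1 and TP63 lie below the grey boxes in UVC against untreated cells, and KLF4 and CEBPA above.

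Among 7790 other genes above 5 cRPKM on average, those whose levels ran closest to each factor over the 6 libraries were chosen, up to 2 for each. Levels were compared as log2(scaled cRPKM + 1), centred on each gene's mean. The added 1 damps the changes of genes at low levels, so a small difference need not mean an equal fold change. In UVC against untreated cells FAM3C changed by -1.25 and GRHL1 by -1.63 on the log2 scale. The nearest were SOCS6 and TNFSF18 for GRHL3 (root mean square differences of 0.0362 and 0.0755 log2 units), FAM3C and ARHGAP29 for GRHL1 (0.0268 and 0.0376), and MRPS9 and SH3GL1 for GRHL2 (0.0127 and 0.0174). VEZT and RTN4 were nearest to TP63 (0.0342 and 0.0404). CITED2 and IL32 were nearest to KLF4 (0.0388 and 0.0612), CST3 to OVOL1 (0.0288), and RPP25 and CIAO2B to ZNF750 (0.0530 and 0.0621). CSTA and FTL were nearest to CEBPA (0.0339 and 0.0404), and XBP1 and NTMT1 to CEBPB (0.0264 and 0.0295). SOCS6 averaged 18.7 scaled cRPKM with active photolyase, 2.53 after UVC and 17.4 in untreated cells, and TNFSF18 15.8, 1.71 and 14.2. CITED2 averaged 101, 98.0 and 49.6 in the same order. The patterns rest on 3 groups of 2 libraries that all genes share, so likeness is a description.

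Of 22 other epidermal transcription factors, 7 rose and 14 fell in UVC against untreated cells (median -0.93). Among those of smallest p, DLX3, a factor of the differentiating layers, rose (1.23 ± 0.07) and the nuclear receptor gene RORA fell (-3.48 ± 0.09). Active photolyase set against UVC gave 13 that rose and 6 that fell (median 0.79), among them RORA (2.97 ± 0.09) and the Kruppel-like factor KLF5 (2.05 ± 0.05) upward, and DLX3 (-0.88 ± 0.07) and CEBPD (-0.55 ± 0.07) downward. Against untreated cells 8 rose and 8 fell (median 0.014), with MAF (1.19 ± 0.09) higher and BARX2 (-1.28 ± 0.07) and BNC1 (-0.46 ± 0.05) lower. With library totals the counts were 8 and 12, 12 and 8, and 9 and 7. Beside the TMM counts of this list and those that follow, 42.5% of all tested genes rose and 43.1% fell in UVC against untreated cells. With active photolyase 39.2% rose and 39.9% fell against UVC, and 33.0% and 32.9% against untreated cells.

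Among 8 tested of 9 cofactors and regulators of the members (TP73 did not pass the filter), 2 rose and 6 fell in UVC against untreated cells (median -0.63). KDM1A, a histone demethylase that works with ZNF750, rose by 0.14 ± 0.05. RCOR1, a partner of KDM1A, fell by 2.59 ± 0.05 and ITCH, a ubiquitin ligase that marks p63 for degradation, fell by 2.46 ± 0.06. With active photolyase, 4 rose and 3 fell relative to UVC (median 0.14), with RCOR1 (1.69 ± 0.05) and ITCH (1.12 ± 0.05) up and KDM1A (-0.17 ± 0.05) down. Against untreated cells none rose and 6 fell (median -0.60), led by ITCH (-1.34 ± 0.05) and RCOR1 (-0.90 ± 0.05). With library totals 3 rose and 4 fell in active photolyase against UVC, where the median turned to -0.16, and 2 rose and 5 fell after UVC (median -0.22).

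Of 20 tested of 25 late differentiation genes, 7 rose and 9 fell in UVC against untreated cells (median -0.18). CASP14, a protease of the cornified layer, rose by 1.12 ± 0.06 and KRT1, a keratin of the upper layers, by 0.70 ± 0.11. ABCA12, a lipid transporter of the barrier, fell by 2.17 ± 0.07 and TGM1, which cross-links the cornified envelope and is a known target of GRHL3, fell by 1.64 ± 0.07. With active photolyase, 11 rose and 5 fell relative to UVC (median 0.38), among them SBSN (2.77 ± 0.14) and ABCA12 (1.36 ± 0.07), while CASP14 (-0.68 ± 0.06) and EVPL (-0.24 ± 0.05), an envelope plakin, fell. Against untreated cells 8 rose and 4 fell (median 0.14), with the envelope precursors SPRR1B (0.77 ± 0.09) and SPRR1A (0.68 ± 0.08) higher and the plakin PPL (-0.72 ± 0.05) and ABCA12 (-0.81 ± 0.06) lower. With library totals the median in UVC against untreated cells turned to 0.23, with 9 higher and 7 lower. In active photolyase against UVC it was then 0.077, with 8 higher and 9 lower, and against untreated cells 0.25, with 12 higher and 3 lower.

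The 6 epithelial genes that GRHL factors bind lay on both sides in each comparison, 3 up and 3 down for UVC against untreated cells (median 0.03) and for active photolyase against UVC (median 0.22), and 3 up and 2 down against untreated cells (median 0.22). CDH1, which encodes E-cadherin, fell by 2.23 ± 0.06 after UVC and ERBB3, a growth factor receptor gene, by 1.67 ± 0.06. With active photolyase CDH1 was 1.36 ± 0.05 and ERBB3 1.40 ± 0.06 higher than after UVC. ARHGEF19, a GRHL3 target in mice, rose by 1.48 ± 0.06 after UVC and ESRP1, a splicing regulator of epithelial cells, by 0.91 ± 0.06, and both were lower with active photolyase than after UVC (-0.92 ± 0.06 and -0.58 ± 0.06). Against untreated cells ARHGEF19 (0.56 ± 0.07) and RAB25 (0.40 ± 0.06) were higher and CDH1 (-0.87 ± 0.05) and ERBB3 (-0.27 ± 0.05) lower. With library totals the median in active photolyase against UVC turned to -0.087, and that in UVC against untreated cells was 0.45.

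Of 10 basal genes that p63 maintains, 1 rose and 8 fell in UVC against untreated cells (median -0.54). The basal keratin KRT5 rose by 0.32 ± 0.06, while the growth factor receptor gene FGFR2 fell by 2.40 ± 0.06 and the integrin gene ITGA6 fell by 1.93 ± 0.06. In active photolyase against UVC 5 rose and 2 fell (median 0.17), with the Notch ligand JAG1 (1.89 ± 0.06) and FGFR2 (1.38 ± 0.06) up and ITGB4 (-0.32 ± 0.06) and KRT5 (-0.28 ± 0.06) down. Against untreated cells 1 rose (PERP, 0.33 ± 0.05) and 6 fell (median -0.18), led by FGFR2 (-1.01 ± 0.06) and ITGA6 (-0.85 ± 0.06). With library totals 4 rose and 5 fell after UVC (median -0.13), and KRT14 and DST changed sign. The same scaling gave 4 that rose and 5 that fell in active photolyase against UVC, where the median turned to -0.14. All members of these lists are read against the shares of all genes given above, and no list was tested as a set.

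**Figure D5:**
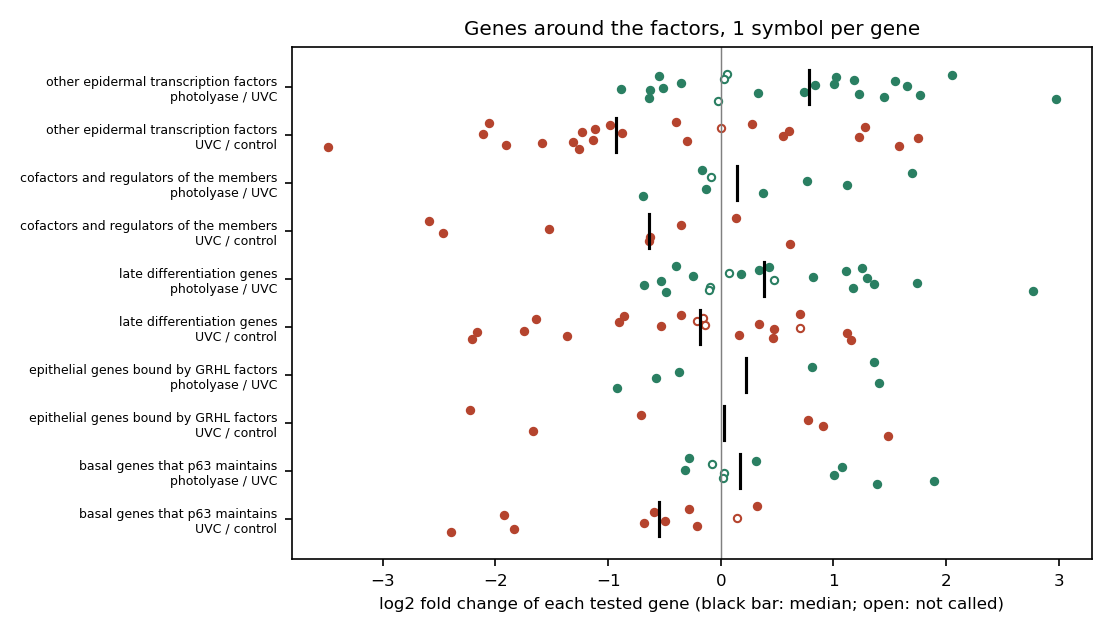
Log2 fold change of each tested gene (1 symbol each, open where not called) in each list, for active photolyase against UVC and for UVC against untreated cells, with black bars for list medians. In UVC against untreated cells, 14 of 22 other epidermal transcription factors and 8 of 10 basal genes fell, beside 43.1% of all tested genes. In active photolyase against UVC 6 and 2 fell, beside 39.9% of all tested genes. With library totals, which are not drawn, 5 of 10 basal genes fell in each comparison.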

How the data were processed

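RNA from HaCaT cells with a photolyase was sequenced in 6 TruSeq libraries (Illumina), per the labels' protocols. The submitters' processing notes name Bowtie and the hg19 build. How reads were counted, with or without strand, and on which annotation is not given in the sources used here. The authors deposited, for each of 19847 Ensembl genes, a read count and a corrected RPKM (cRPKM). Values were missing for 354 genes. Symbols were found for 18913 identifiers.

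The counts were tested with the quasi-likelihood F test of edgeR 4.0.16 in R 4.3.3, with TMM factors, all 6 libraries in 1 fit by group, genes at 1 cRPKM or more in at least 2 libraries (11926) and Benjamini-Hochberg adjustment. A gene is called at an adjusted p under 0.05. Printed levels are cRPKM divided by the TMM factor, and errors are SE of the fit unless named SD. The steps were tested on simulated data in which only a small part of the genes changed. That setting differs from these data, where most genes moved, so it could not check the scaling. Alternatives used DESeq2 1.42.0, limma 3.58.1, library totals, other filters, a replicate block and each library left out.

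The 9 members and the gene lists were chosen with earlier results of these data known. Named genes were all members, for each the 2 genes of most like pattern, and for each list the genes of smallest p, up to 2 in each direction and comparison; a few genes that the rule names are not reported here. Spans come from GENCODE v29 and promoter windows from RefSeq (GRCh38.p14), so no hg19 positions are given.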

Additional observations from a re-analysis of the deposited data

How the results depend on the processing

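Of 348 values of single factors under an alternative, 104 with a library left out and 208 others kept their direction and their side of the threshold, 16 changed direction, 19 became calls and 1 was no longer a call. Library totals and limma on log2(cRPKM + 1 or 0.1) shifted the median of all genes. Under each of the 3 settings 6 factors rose in UVC against untreated cells in place of 3. Of all 11926 tested genes, 7091, 7084 and 7067 then rose in place of 5074. In active photolyase against UVC 5 factors fell in place of 1, where more of all genes fell too, as given above for library totals. A filter of 5 cRPKM, which leaves out GRHL2, gave 2 that fell in active photolyase against UVC. In UVC against untreated cells that filter gave 4 that rose, with ZNF750 added, and 3 that fell. Over all genes it gave 3955 that rose and 3674 that fell. In UVC against untreated cells, GRHL2 was 0.35, 0.28 and 0.34 and CEBPB 0.21, 0.21 and 0.21 with totals, limma + 1 and limma + 0.1, and CEBPB was -0.08 with the filter of 5 (edgeR adjusted p = 0.106). In active photolyase against UVC, CEBPA was -0.24, -0.22 and -0.24, and -0.027 with the filter of 5, while without a filter ZNF750 was 0.0018 and KLF4 0.00098. The limma settings took the deposited cRPKM without TMM factors. They thus leave out TMM scaling as library totals do, and the 3 settings are not independent checks. The cause of the changes under other filters was not tested. Leaving out 1 library each, ZNF750 ranged from -0.012 to 0.24 in UVC against untreated cells, from -0.19 to 0.087 in active photolyase against UVC and from -0.073 to 0.21 in active photolyase against untreated cells, and was not called in any. The factors called with all libraries stayed called without any 1 of them. With the replicate number as a replicate block, 3 rose and 4 fell, 4 rose and 1 fell, and 4 rose and 3 fell in the 3 comparisons, as without it, and the numbers of a pair of groups deviated together with r of 0.18, 0.047 and -0.020. DESeq2 gave the same member counts in UVC against untreated cells. Both the 2 libraries of a group and, for GRHL1, counts as low as 463 reads limit precision.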

Other observations

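Possible relatives of these factors were picked by symbol alone, after the members' values had been seen. Of the other Kruppel-like factor genes, 11 of 15 were tested. In UVC against untreated cells KLF10 rose (log2 fold change 0.60) and 9 fell, among them KLF7 (-2.58), KLF5 (-2.05) and KLF6 (-1.61). Relative to UVC, 9 rose with active photolyase, led by KLF5 (2.05), KLF3 (1.47) and KLF7 (1.36), and KLF10 fell (-0.25). Against untreated cells 2 rose and 5 fell, and KLF7 was lower (-1.22). Beside these counts, 42.5% of all tested genes rose and 43.1% fell in UVC against untreated cells. With active photolyase the shares were 39.2% and 39.9% against UVC, and 33.0% and 32.9% against untreated cells. KLF5 averaged 322.03 scaled cRPKM with active photolyase, 77.5 after UVC and 321.77 in untreated cells. KLF4, by contrast, averaged 222, 229 and 116 in the same order. With library totals 2 rose and 8 fell after UVC, 7 rose and 2 fell in active photolyase against UVC, and KLF2 changed sign in both.

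Among the other tested genes with a CEBP symbol, CEBPG (-0.99) and CEBPZ (-1.46) fell and CEBPD (0.27) and CEBPE (1.07) rose in UVC against untreated cells. A shared symbol does not make a gene a C/EBP factor, and CEBPZ is listed by symbol only. CEBPG averaged 29.1 scaled cRPKM with active photolyase, 14.3 after UVC and 28.3 in untreated cells. CEBPE, a gene near the lower limit of detection here, averaged 1.74, 0.78 and 0.37 in the same order. The GRHL relatives TFCP2 (-0.74) and UBP1 (-0.82) fell after UVC and were lower with active photolyase than in untreated cells (-0.43 and -0.35). OVOL2 averaged 3.22 scaled cRPKM with active photolyase, 3.11 after UVC and 4.09 in untreated cells; its fall after UVC (-0.40) turned to 0.018 with library totals.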
